A study of Mus musculus with 145 samples.

Results

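Pluripotent-like cells that arose from mouse spermatogonial stem cells (SSCs) with or without a chemical cocktail were compared. They were defined as cells with fewer than 400 CPM of *Dazl*, an RNA-binding protein of germ cells, and at least 100 CPM of *L1td1*, an RNA-binding protein of pluripotent cells, where CPM is the count of unique molecules scaled to the same total in every cell. SSCs were reprogrammed with 5 chemicals together (5C: SGC707, a PRMT3 inhibitor; vitamin C; EGCG, the main catechin of green tea; daphnetin, a plant coumarin; and TUDCA, a bile acid) or with the solvent DMSO, and single cells were sequenced by the RNA arm of scTrio-seq2, which reads the transcriptome and the methylome of one cell. The SSCs of both arms were of the strain C57BL/6[female] X DBA[male], from male pups of 5.5 days whose mothers carried an *Oct4*-EGFP or EGFP transgene, and both arms were cultured with EGF, bFGF, GDNF and ESGRO, a LIF preparation, on inactivated fibroblast feeders. Single cells were picked from selected colonies with a mouth pipette, so the share of a cell class describes the collected cells and not the cultures.

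By this rule 287 of 1081 cells were pluripotent-like. They were 147 of 724 cells of the 5C arm (20.3%, exact 95% interval 17.4 to 23.4) and 140 of 357 cells of the DMSO arm (39.2%, 34.1 to 44.5). These intervals cover counting error only. In the 5C arm the cells came from replicate 1 (26 cells, day 12), replicate 3 (6, day 14), replicate 5 (54, day 14), replicate 6 (8, day 16), replicate 7 (38, day 12) and replicate 8 (15, day 16). In the DMSO arm they came from replicate 1 (75 cells) and replicate 2 (65 cells), both of day 20. No such cell was found among 91 and 92 cells of 5C replicates 2 and 4 or among 88, 46 and 45 cells of DMSO replicates 3, 4 and 5, which allows shares of up to 3.26% to 6.67% by the rule of 3 counts of the total (exact 95% upper limits 3.93% to 7.87%). Days were read from the names of the cells, since the labels of these samples give the treatment and not the day. No day was sampled in both arms, so the effect of 5C and that of the day of collection cannot be told apart. Nothing in the labels says that samples of an arm came from separate cultures, so p-values measure the spread between these samples, which may be technical.

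**Figure D1:**
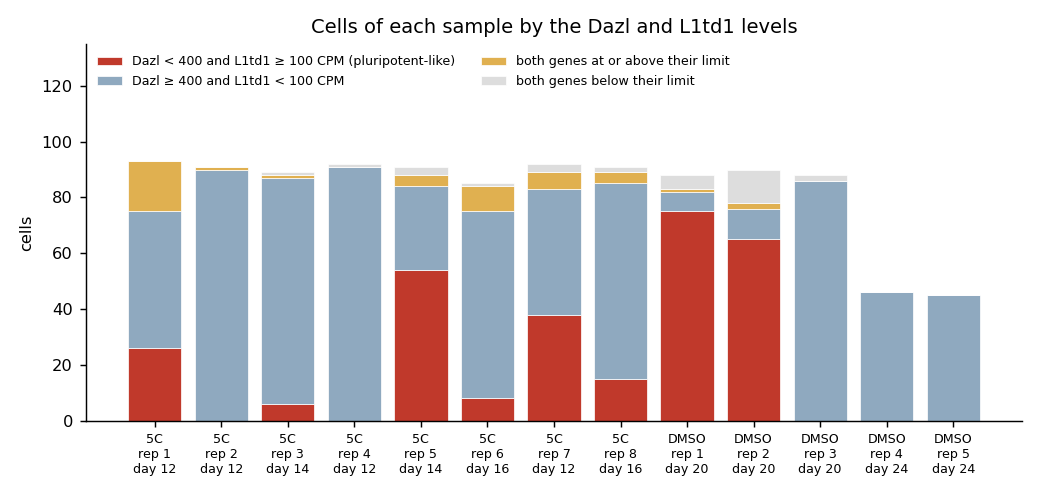
Number of cells (y axis) in each 5C and DMSO sample (x axis, with the replicate and the day), coloured by the classes that the limits of 400 CPM for Dazl and 100 CPM for L1td1 give. Pluripotent-like cells were 75 and 65 in DMSO replicates 1 and 2 and 6 to 54 in the 6 5C samples that held any.

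The genes that chose the cells are given as a description. The median *Dazl* level per cell was 111 CPM in 5C and 0 in DMSO, and the cells nearest to the limit stood at 396 CPM inside and 403 CPM outside it in 5C and at 225 and 494 CPM in DMSO. The median *L1td1* level was 539.9 CPM in 5C and 345 CPM in DMSO, and the cells nearest to the limit stood at 114 and 93.4 CPM in 5C and at 105 and 94.2 CPM in DMSO. The markers of the class that the rule did not use (*Nanog*, *Slc2a1*, *Mt1*, *Tdgf1*, *Pou5f1*, *Sox2*, *Utf1* and *Dppa5a*) were detected in each of the 8 samples.

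Counts were summed over the pluripotent-like cells of each sample, which gave 6 sums of 492339 to 5093084 unique molecules (UMIs) in 5C and sums of 5618462 and 5671627 UMIs in DMSO. In such sums, fewer cells that express a gene and less RNA per cell cannot be told apart. The median cell held 99628 UMIs and 6556 genes in 5C and 75421 UMIs and 5151 genes in DMSO, and mitochondrial UMIs took a median of 1.37% and 1.29%. The 7 feeder and fibroblast markers, of which *Col3a1* was at 0 in every sample, summed to 7.63 to 30.6 CPM in 5C and to 23.5 and 6.24 CPM in DMSO. The 4 meiotic markers summed to 3.003 to 15.3 CPM and to 10.7 and 6.89 CPM, and the 4 neural markers to 0.846 to 40.7 CPM, highest in 5C replicate 6, and to 5.25 and 1.51 CPM. In each of these lists the ranges of the arms overlapped.

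Of 11432 genes tested with edgeR's quasi-likelihood test, 729 were called higher in 5C (6.38%) and 864 lower (7.56%), where a call needed a log2 fold change of at least 0.721 in size (0.5 on the natural-log scale) and a p below 0.05 after Benjamini-Hochberg adjustment. The median log2 fold change of all genes tested was 0.07. Every 5C sample lay above both DMSO samples in 13.9% of the genes and below both in 18.4%. Without DMSO replicate 1, 143 genes were called higher and 362 lower, and without DMSO replicate 2, 108 and 388, with the lone DMSO sample assumed to vary like the 5C samples. With an offset for transcript GC content 1026 were higher and 473 lower, while DESeq2 size factors in place of TMM gave 723 and 902. In a limma test on the mean CPM of the cells, which differs in weighting, scaling and test at once, 1454 were higher and 224 lower. Unless stated otherwise, levels below are CPM of the sums after TMM scaling, differences are log2 of 5C over DMSO ± the standard error (SE), and adjusted p-values are those of edgeR over all genes. The TMM factors were 1.05 to 1.12 in the 5C samples and 0.782 and 0.822 in DMSO. Scaling thus raised the DMSO levels against those of 5C. In unscaled CPM the arms overlapped for *Fbxo15*, *Tcf15*, *Dnmt3l*, *Pim3*, *Ccng1* and *Aurka*, all called lower. Counts of called list members below stand beside the 6.38% higher and 7.56% lower of all genes.

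The difference between the arms moved with transcript length. With the genes cut by length into 5 groups of equal number, the median log2 fold change was, from the shortest to the longest group, -0.56, -0.14, 0.14, 0.42 and 0.69. Genes called lower in 5C had a median transcript length of 1487 bases and genes called higher one of 4789 bases, against 3060 bases for all genes with a length. In *Dazl*-high cells (at least 400 CPM of *Dazl* and under 100 CPM of *L1td1*) the medians over the same 5 groups ran from -0.10 to 0.27. With an offset for length in each sample, a fit chosen after seeing the data, 396 genes were called higher (3.69%) and 362 lower (3.37%), of which 313 and 274 were also called without it. The part of length in the results was not tested.

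**Figure D2:**
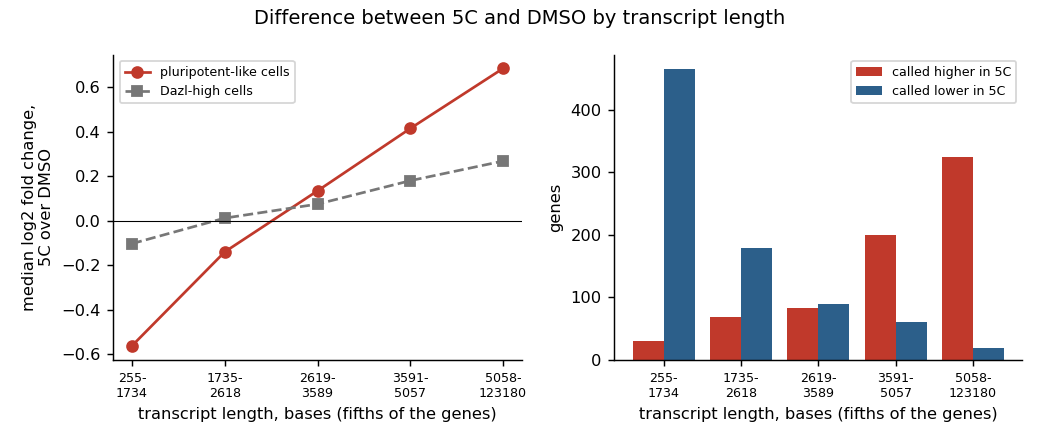
Left, median log2 fold change of 5C over DMSO (y axis) for 5 groups of genes of equal number by transcript length in bases (x axis), in pluripotent-like cells and in Dazl-high cells. Right, number of genes called higher and lower in 5C in each group. The median ran from -0.56 to 0.69 in pluripotent-like cells and from -0.10 to 0.27 in Dazl-high cells.

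Metallothioneins are small cysteine-rich proteins that bind zinc and copper, and their genes are switched on by the metal-sensing factor MTF1 through short metal-response elements near their start. *Mt1* and *Mt2* lie side by side on chromosome 8. The RefSeq sequences of the 250 bases before their starts (build GRCm38.p6, both on the plus strand, chr8:94178839-94179088 for *Mt1* and chr8:94172368-94172617 for *Mt2*) are shown because the pair differed between the arms by similar amounts. Capitals mark the motif cores TGCACNC and TGCGCNC, searched on both strands.
Mt1: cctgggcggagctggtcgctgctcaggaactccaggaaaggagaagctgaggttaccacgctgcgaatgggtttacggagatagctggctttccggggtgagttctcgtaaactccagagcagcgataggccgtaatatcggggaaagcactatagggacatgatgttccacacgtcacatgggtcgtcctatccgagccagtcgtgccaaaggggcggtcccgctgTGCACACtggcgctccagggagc
Mt2: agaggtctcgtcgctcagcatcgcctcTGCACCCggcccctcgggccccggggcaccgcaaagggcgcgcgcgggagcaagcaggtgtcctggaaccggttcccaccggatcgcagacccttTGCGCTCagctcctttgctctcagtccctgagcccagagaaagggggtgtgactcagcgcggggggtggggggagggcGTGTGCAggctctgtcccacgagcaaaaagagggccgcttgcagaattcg
The *Mt1* window held 1 match and the *Mt2* window 3. The RefSeq start is at 94179089 for *Mt1* and 94172618 for *Mt2*, and the annotation used for lengths has 94179082 and 94172664. Bases from the RefSeq start onward were not searched, so the counts do not cover the whole promoter. At least 1 match was held by 21.4% of 32851 windows of this length and at least 3 by 1.26%. A match describes the letters only.

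Both metallothionein genes were lower in 5C. *Mt1* stood at 218, 386 and 514 CPM in the lowest, the median and the highest 5C sample and at 3414 and 2817 CPM in DMSO (-3.05 ± 0.19, adjusted p = 3.86e-07). *Mt2* ran from 136 to 533 CPM in 5C and stood at 2313 and 2046 CPM in DMSO (-2.89 ± 0.30, adjusted p = 2.54e-05). The arms did not overlap in either gene, and replicate 8 was the lowest 5C sample and replicate 7 the highest in both. Cell by cell, none of the 147 5C cells exceeded the DMSO median of 2558 CPM for *Mt1*, and all 140 DMSO cells exceeded the 5C median of 225 CPM. With the length offset the differences were -2.38 and -1.97, both still called.

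*Slc30a1*, which encodes the zinc exporter ZnT1 and is another target of MTF1, differed in the other direction. It ran from 7.32 to 25.1 CPM in 5C and stood at 4.34 and 1.72 CPM in DMSO (2.60 ± 0.70, adjusted p = 0.0188). It lost its call with the length offset (2.24, adjusted p = 0.0586), with *Dazl* held below 200 CPM, and without either DMSO sample. Of the 16 tested genes of the metallothionein and redox list, 7 were lower and *Slc30a1* was higher, with a list median of -0.47. The thioredoxin *Txn1* (-1.09), the peroxiredoxin *Prdx1* (-0.88) and the ferritin light chain *Ftl1* (-0.96) were among the lower genes. These 3 lost their call with the length offset, under which the list median was -0.14 and 3 genes were lower. The glutathione synthesis genes *Gclc* (0.71) and *Gclm* (0.17) and the heme oxygenase *Hmox1* (-0.51) did not pass the test.

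Cells that rely on glycolysis take up glucose through carriers such as GLUT1, the product of *Slc2a1*, and turn pyruvate into lactate with lactate dehydrogenase. Of 18 tested genes of glycolytic enzymes, 11 were lower in 5C and none was higher, with a list median of -1.22, and 9 were lower with the length offset (median -0.99). *Tpi1*, triosephosphate isomerase, stood at 113, 169.8 and 221 CPM in the lowest, the median and the highest 5C sample and at 1059 and 996 CPM in DMSO (-2.59 ± 0.18, adjusted p = 1.05e-06). *Ldha*, lactate dehydrogenase A, stood at 444, 586 and 758 CPM in 5C and at 2435 and 2161 CPM in DMSO (-1.92 ± 0.16, adjusted p = 6.47e-06). The arms did not overlap in these genes, and none of the 147 5C cells exceeded the DMSO median for *Ldha*. The liver phosphofructokinase gene *Pfkl* (-2.21 ± 0.21), the aldolase *Aldoa* (-1.59 ± 0.11), the enolase *Eno1* (-1.65 ± 0.18) and the pyruvate kinase *Pkm* (-1.13 ± 0.10) were lower too. *Gapdh* was lower by the main test (-0.90 ± 0.11) but not with the length offset (-0.34). *Gpi1* (-0.27) and *Hk1* (-0.35) did not pass the test, while the other hexokinase gene *Hk2* was lower (-1.20 ± 0.24).

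*Slc2a1* levels in 5C were 86.00, 85.8, 98.2, 114, 99.1 and 99.5 CPM in replicates 1, 3, 5, 6, 7 and 8, and those in DMSO were 601 and 593 CPM (-2.62 ± 0.15, adjusted p = 2.26e-07). The 5C samples lay close together and far below both DMSO samples, and the length offset left the difference at -2.64. In cells thinned to 30000 UMIs, 80.3% of 5C cells and 98.5% of DMSO cells held a *Slc2a1* UMI (96.4% and 100% before thinning), against 51.5% and 84.6% of *Dazl*-high cells. The median cell kept for thinning held 104899 and 76533 UMIs in the pluripotent-like class, and 10 5C and 5 DMSO cells were too shallow and left out.

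The hypoxia-inducible factors act on many of these genes through a short core in their promoters. Of 24 listed genes of the hypoxia response 19 were tested, of which 6 were lower in 5C and none was higher (median -0.92), and 7 were lower with the length offset. In the limma test on the mean CPM of the cells the list median was -0.20, beside 0.34 for all genes. *Ndufa4l2*, a mitochondrial protein known as a target of HIF-1, was at 0 in 4 of the 6 5C samples and at 1.502 and 0.547 CPM in replicates 5 and 8, against 31.96 and 29.9 CPM in DMSO (-5.87 ± 0.88, adjusted p = 3.49e-04). *Ankrd37* ran from 1.91 to 6.59 CPM in 5C and stood at 32.9 and 27.98 CPM in DMSO (-2.81 ± 0.52). *Bnip3*, which marks mitochondria for removal, ran from 2.54 to 26.1 CPM and stood at 95.6 and 69.95 CPM (-2.44 ± 0.50). The arms did not overlap in these genes, though *Ankrd37* and *Bnip3* lost their call without DMSO replicate 1. The genes of the factors themselves, *Hif1a* (0.29 ± 0.29, adjusted p = 0.543) and *Epas1* (0.46 ± 0.56, adjusted p = 0.6298), did not pass the test.

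The 250 bases before the RefSeq starts of *Bnip3* and *Ankrd37* are shown as examples of this group, with the hypoxia-response cores ACGTG and GCGTG, searched on both strands, in capitals. They lie on the minus strand at chr7:138909507-138909756 and chr8:45999851-46000100 of GRCm38.p6 and are written 5′ to 3′ along the gene. The RefSeq start of *Ankrd37* lies 5857 bases inside the gene as the annotation used for lengths has it, so its window is not the region before that annotated start. Overlapping matches were counted separately.
Bnip3: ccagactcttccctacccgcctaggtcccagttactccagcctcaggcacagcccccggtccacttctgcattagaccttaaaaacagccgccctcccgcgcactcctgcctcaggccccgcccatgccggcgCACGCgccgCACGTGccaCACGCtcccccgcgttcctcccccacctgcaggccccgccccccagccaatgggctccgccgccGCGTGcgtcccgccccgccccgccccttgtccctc
Ankrd37: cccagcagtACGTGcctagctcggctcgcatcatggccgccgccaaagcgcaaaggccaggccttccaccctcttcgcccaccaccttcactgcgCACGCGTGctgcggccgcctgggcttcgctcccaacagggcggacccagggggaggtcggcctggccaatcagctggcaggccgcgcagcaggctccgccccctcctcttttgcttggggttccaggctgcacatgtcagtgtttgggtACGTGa
The *Bnip3* window held 5 matches and the *Ankrd37* window 4. At least 1 match was held by the windows of all 11 tested genes of the list with a single window, of which 5 were called lower, so genes that were called and genes that were not held it alike. At least 1 match was held by 38.6% of all windows, at least 4 by 2.58% and at least 5 by 1.01%.

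**Figure D3:**
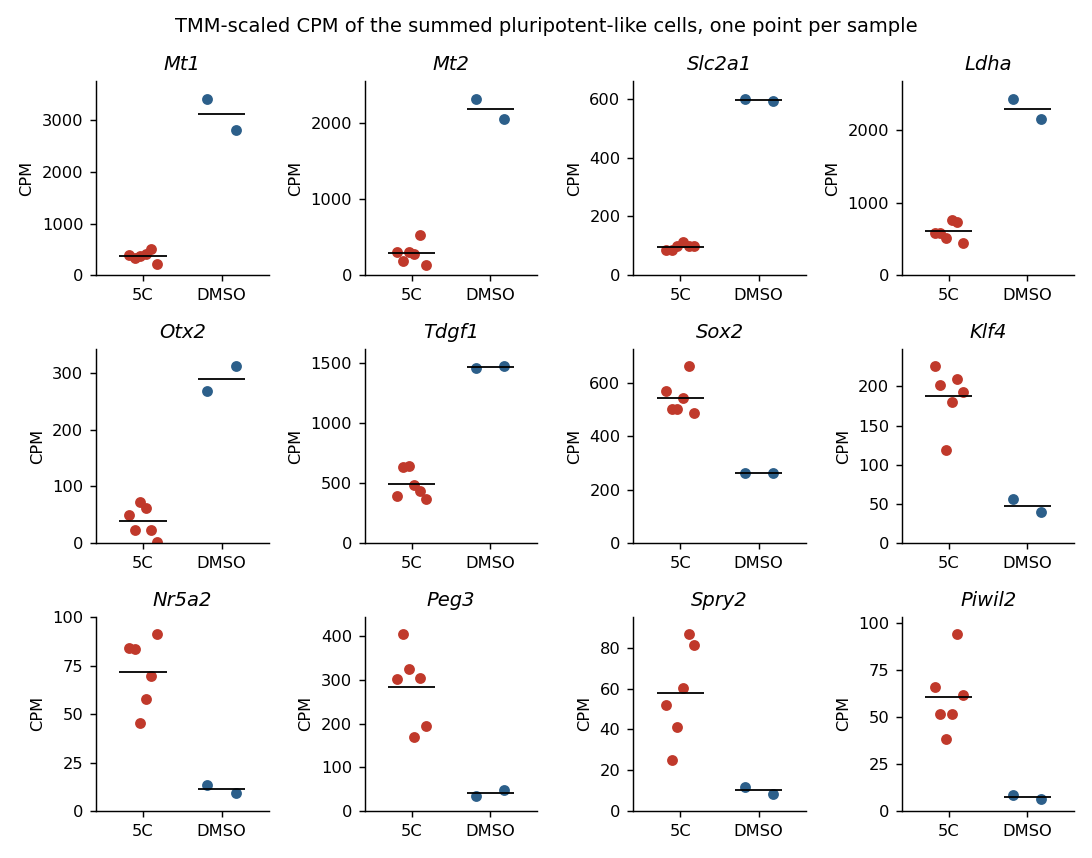
TMM-scaled CPM (y axis, from 0) of 12 genes in the summed pluripotent-like cells, with one point for each of the 6 5C and 2 DMSO samples and a line at the mean of the arm. All 5C samples lie below both DMSO samples for Mt1, Mt2, Slc2a1, Ldha, Otx2 and Tdgf1 and above both for Sox2, Klf4, Nr5a2, Peg3, Spry2 and Piwil2.

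The core pluripotency genes divided. Of 16 tested, *Sox2* and *Sall4* were higher in 5C, *Tdgf1*, *Dppa5a* and *Utf1* were lower and 11 were not called, with a list median of -0.06. The shares of all genes were 6.38% higher and 7.56% lower. *Sox2* stood at 488, 525 and 662 CPM in the lowest, the median and the highest 5C sample and at 263 and 265 CPM in DMSO (1.05 ± 0.15, adjusted p = 3.09e-04). *Tdgf1*, a co-receptor of NODAL, stood at 362, 459 and 641 CPM in 5C and at 1455 and 1467 CPM in DMSO (-1.58 ± 0.18, adjusted p = 4.44e-05). Both kept their call with the length offset, whereas *Utf1* (-1.09, and -0.47 with the offset), *Dppa5a* (-1.53 and -0.65) and *Sall4* (0.84 and 0.50) did not, and *Sall4* also lost its call without DMSO replicate 1. *Nanog* ran from 209.8 to 249 CPM in 5C and stood at 353 and 339 CPM in DMSO, a difference of -0.58 ± 0.15 whose adjusted p was 0.0134 but whose size was below the limit for a call. In unscaled CPM it ran from 223 to 267 in 5C and stood at 275 and 277 in DMSO. *Pou5f1* (-0.63, adjusted p = 0.332), which encodes OCT4 and whose promoter also drives the reporter, overlapped between the arms.

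Naive pluripotency is the state of the early epiblast, held by factors such as the KLF proteins and NR5A2, and formative or primed pluripotency is that of the later epiblast, marked by OTX2 and FGF5. Of 12 tested naive genes, *Nr5a2*, *Klf4* and *Klf2* were higher in 5C and *Tcl1* and *Fbxo15* were lower, beside 6.38% and 7.56% of all genes. *Klf4* stood at 119, 198 and 225 CPM in the lowest, the median and the highest 5C sample and at 56.2 and 39.2 CPM in DMSO (1.98 ± 0.27, adjusted p = 1.73e-04). *Nr5a2* ran from 45.6 to 91.3 CPM in 5C and stood at 13.2 and 9.04 CPM in DMSO (2.68 ± 0.38, adjusted p = 2.41e-04). *Tcl1*, a co-activator of AKT, ran from 66.8 to 118 CPM in 5C and stood at 252 and 271 CPM in DMSO (-1.57 ± 0.22). Members of the list thus differed in opposite directions, and *Fbxo15* (-0.82) lost its call with the length offset and without either DMSO sample, *Klf2* without DMSO replicate 2. *Esrrb* (0.60, adjusted p = 0.0547) did not pass the test.

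Of 14 tested formative and primed genes, *Otx2*, *Fgf5* and *Tcf15* were lower in 5C and none was higher. *Otx2* stood at 2.19, 36.3 and 71.7 CPM in the lowest, the median and the highest 5C sample, lowest in replicate 8, and at 268 and 312 CPM in DMSO (-2.86 ± 0.54, adjusted p = 0.00209). At least 50 CPM of *Otx2* were held by 37 of 147 5C cells (25.2%) and by 117 of 140 DMSO cells (83.6%). *Fgf5* was at 0 in 5 of the 6 5C samples and at 1.31 CPM in replicate 5, against 32.2 and 18.7 CPM in DMSO (-5.97 ± 0.97, adjusted p = 6.58e-04). *Tcf15* (-1.48) lost its call with the length offset and without either DMSO sample, and *Fgf15* did not pass the test (-2.38 ± 1.16, adjusted p = 0.183). Among cells with at least 50 CPM of *Otx2*, 610 genes were called higher and 890 lower, of which 381 and 612 were also called over all pluripotent-like cells. These counts rest on 2 samples in each arm (7 and 22 cells of 5C replicates 1 and 5, 61 and 56 cells of DMSO), since the other 5C samples held fewer than 5 such cells.

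Spermatogonial genes differed in the direction of *Dazl*, which set the rule. Of 16 listed genes 11 passed the filter on low counts, of which 6 were higher in 5C and none was lower, and 5 were higher with the length offset. *Piwil2*, a partner of piRNAs, stood at 38.3, 56.7 and 94.1 CPM in the lowest, the median and the highest 5C sample and at 8.22 and 6.46 CPM in DMSO (3.05 ± 0.43, adjusted p = 2.14e-04). *Tex101*, a surface protein of germ cells, ran from 22.96 to 51.5 CPM in 5C and stood at 2.97 and 7.103 CPM in DMSO (2.697 ± 0.53). The arms did not overlap in either. The germ cell helicase *Ddx4* (1.63 ± 0.42) and *Sohlh1* (3.50 ± 1.03), a transcription factor of spermatogonia, lost their calls without either DMSO sample, *Tex101* without DMSO replicate 1 and *Sohlh2* (2.11 ± 0.49) without DMSO replicate 2. *Id4*, a marker of SSCs, was the sixth (1.77 ± 0.57, adjusted p = 0.0458) and lost its call with the length offset (1.62, adjusted p = 0.0914) and without either DMSO sample.

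These levels were a fraction of those in *Dazl*-high cells. The 16 spermatogonial genes summed to 253 to 398 CPM (unscaled) in the pluripotent-like cells of 5C, which was 11.5% to 18.1% of the sum in *Dazl*-high cells of the same samples, and to 87.6 and 87.3 CPM in DMSO, or 3.55% and 3.21%. *Dazl*-high cells were 32.97% to 91.0% of all cells in these 5C samples and 7.96% and 12.2% in the DMSO samples. Within 5C the shares were 52.7%, 91.0%, 32.97%, 78.8%, 48.9% and 76.9% in replicates 1, 3, 5, 6, 7 and 8, and the sums were 393, 398, 253, 311, 360.0 and 353 CPM. The ratio was not the same for all genes: in 5C it was 5.48% to 14.7% for *Tex101* and 24.2% to 59.9% for *Piwil2*. The part of germ cell RNA in these levels was not tested.

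*Nanos3* encodes an RNA-binding protein that primordial germ cells need to survive. Of 10 tested genes of germ cell specification it was the 1 called, beside 13.9% of all genes. It stood at 17.3, 36.3 and 108 CPM in the lowest, the median and the highest 5C sample and at 1.14 and 0.646 CPM in DMSO (5.63 ± 0.84, adjusted p = 3.45e-04). In thinned cells, 51.1% of 5C cells and 1.48% of DMSO cells held a *Nanos3* UMI (83.9% and 5.93% before thinning), against 72.7% and 83.5% of *Dazl*-high cells. *Dppa3* (156 to 878 CPM in 5C, 288 and 304 CPM in DMSO) and *Tfap2c* (8.82 to 158 CPM, 20.5 and 34.4 CPM), both active in early germ cells, overlapped between the arms. Both varied widely within 5C and were highest in replicate 7.

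FGF signals through ERK switch on their own inhibitors, among them the SPRY and SPRED proteins, and factors such as ETV4 and EGR1. Of 12 tested genes of this feedback, 6 were higher in 5C and none was lower, with a median of 1.34, and 5 were higher with the length offset (median 1.32). In *Dazl*-high cells the median difference of the list was 1.99. *Spry2* stood at 24.8, 56.2 and 86.6 CPM in the lowest, the median and the highest 5C sample and at 11.6 and 8.39 CPM in DMSO (2.54 ± 0.48, adjusted p = 0.00184). *Egr1* ran from 21.6 to 65.2 CPM in 5C and stood at 1.37 and 7.96 CPM in DMSO (2.997 ± 0.65, adjusted p = 0.00537). In *Dazl*-high cells of the same samples *Egr1* stood, unscaled, at 92.2 to 226 CPM in 5C and at 14.7 and 68.9 CPM in DMSO. *Spred1* (2.19 ± 0.43), *Etv4* (1.69 ± 0.33), *Spry4* (1.27 ± 0.34) and *Myc* (1.41 ± 0.40) were higher as well. The arms did not overlap in *Spry2*, *Egr1*, *Spred1*, *Etv4* and *Spry4*, but *Egr1* and *Etv4* lost their calls without DMSO replicate 1, *Spry2* without DMSO replicate 2, and *Spred1*, *Spry4* and *Myc* without either. *Spry4* also lost its call with the length offset (0.98, adjusted p = 0.0949). *Dusp6* (0.82, adjusted p = 0.107) and *Etv5* (-0.17) did not pass the test.

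LIF acts through the receptor chain gp130, encoded by *Il6st*, and the factor STAT3. *Stat3* ran from 89.8 to 172 CPM in 5C and stood at 38.3 and 46.5 CPM in DMSO (1.48 ± 0.28, adjusted p = 0.00178). Among 8 tested genes, *Il6st* (1.28 ± 0.40) and the kinase gene *Pim1* (1.29 ± 0.27) were higher too and *Pim3* (-0.82 ± 0.26) was lower, and these 3 lost their calls without either DMSO sample, *Stat3* without DMSO replicate 1. With the length offset *Il6st* (0.70, adjusted p = 0.306) and *Pim3* (-0.60, adjusted p = 0.169) were not called. *Socs3*, a direct target of STAT3, differed by 0.06 (adjusted p = 0.9295). Of 7 tested Wnt targets, *Axin2* (22.9 to 49.7 CPM against 11.2 and 3.23 CPM, 2.27 ± 0.55) and *Sp5* were higher. *Axin2* lost its call without DMSO replicate 2 and in cells with at least 50 CPM of *Otx2*. *Sp5* ran from 13.6 to 41.7 CPM in 5C, while the DMSO sums held 1 UMI in all, so that its level in 5C was 273 times that in DMSO (95% counting interval 48.7 to 10790). In *Dazl*-high cells of the same samples *Sp5* stood, unscaled, at 47.5 to 156 CPM in 5C and at 23.6 and 13.8 CPM in DMSO. Its level in pluripotent-like cells of 5C was 21.1% to 55.5% of that.

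**Figure D4:**
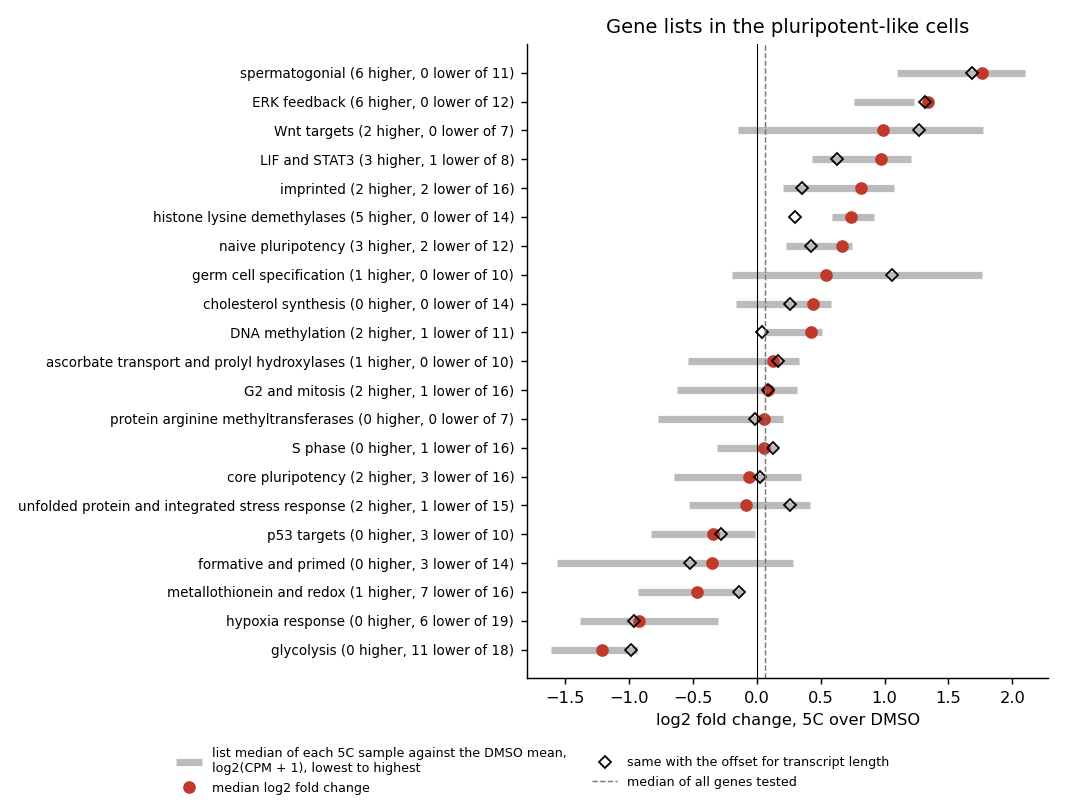
Median log2 fold change of 5C over DMSO (x axis) of each gene list with at least 5 tested genes (y axis, with the number called higher and lower of those tested). Filled circles are the main test, open diamonds the fit with the offset for transcript length, and grey bars span the list medians of single 5C samples against the DMSO mean on the log2(CPM + 1) scale. The medians of glycolysis (-1.22) and the hypoxia response (-0.92) and those of the spermatogonial (1.77) and ERK feedback (1.34) lists lie on opposite sides of the median of all genes tested (0.07, dashed line).

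Imprinted genes are expressed from one parental copy. Of 22 listed 16 were tested, and 2 were higher and 2 lower, beside 6.38% and 7.56% of all genes. *Peg3*, a paternally expressed zinc finger gene, stood at 170.3, 303 and 404 CPM in the lowest, the median and the highest 5C sample and at 33.6 and 46.9 CPM in DMSO (2.81 ± 0.33, adjusted p = 5.01e-05). 65 of 140 DMSO cells and 2 of 147 5C cells held no *Peg3* UMI. *Phlda2*, a maternally expressed gene that limits placental growth, stood at 0.282, 0, 11.4, 5.08, 0.314 and 0 CPM in 5C replicates 1, 3, 5, 6, 7 and 8 and at 95.2 and 79.9 CPM in DMSO (-4.65 ± 0.84, adjusted p = 0.00148). The arms did not overlap in either gene, and both kept their calls with the length offset. *Snrpn* (-1.04 ± 0.23) lost its call with the offset and without either DMSO sample. *Kcnq1ot1* (1.39 ± 0.42), which runs antisense within *Kcnq1* so that reads of the pair may not be told apart, had no transcript length and lost its call without either DMSO sample or without 5C replicate 1 or 5.

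Of 11 tested genes of DNA methylation, *Dnmt1* (151 to 269 CPM in 5C against 91.8 and 98.8 CPM, 1.120 ± 0.24), the maintenance methyltransferase, and *Tet2* (1.52 ± 0.33), a 5-methylcytosine oxidase, were higher and the cofactor *Dnmt3l* (-0.97 ± 0.28) was lower. Over all genes 6.38% were higher and 7.56% lower. *Dnmt1* and *Dnmt3l* lost their calls without either DMSO sample and *Tet2* without DMSO replicate 1. With the length offset edgeR called none of the 11, with 4 at an unadjusted p below 0.05, while DESeq2 and limma without it called 3 and 5. Of 14 histone lysine demethylase genes, whose median transcript length was 6149 bases, 5 were higher and none was lower. *Kdm1a*, which encodes LSD1, was the one still called with the length offset (144 to 209 CPM in 5C against 76.01 and 71.03 CPM, 1.29 ± 0.21, and 1.35 with the offset).

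Of 7 tested protein arginine methyltransferase genes edgeR called none, with 1 at an unadjusted p below 0.05, DESeq2 called none, and the limma test and the length offset called 1 each. *Prmt3*, whose product SGC707 inhibits, ran from 41.00 to 121 CPM in 5C and stood at 100.2 and 139.9 CPM in DMSO (-0.65, adjusted p = 0.176). Of 10 tested genes of ascorbate transport and prolyl hydroxylation, *Slc23a2*, a vitamin C carrier, was higher (1.76 ± 0.56, adjusted p = 0.0414) and lost its call with the length offset and without 5C replicates 1, 5, 7 or 8 or DMSO replicate 2. Over all genes 6.38% were higher. Of 15 tested genes of the unfolded protein and integrated stress responses, the chaperones *Calr* (0.91 ± 0.18) and *Pdia4* (0.76 ± 0.23) were higher and *Psat1* (-1.53 ± 0.34), an enzyme of serine synthesis, was lower. These counts stand beside 6.38% higher and 7.56% lower of all genes. The p53 list held *Trp53*, which encodes p53 itself, and 9 of its targets, all tested. Of the targets, *Cdkn1a* (-1.07 ± 0.22), *Ccng1* (-1.001 ± 0.27) and *Phlda3* (-1.34 ± 0.44) were lower, beside 7.56% of all genes. With the length offset *Cdkn1a* (-0.74, adjusted p = 0.0561) and *Phlda3* (-0.80, adjusted p = 0.308) were not called. *Pdia4*, *Psat1*, *Ccng1* and *Phlda3* lost their calls without either DMSO sample, *Calr* without DMSO replicate 2 and *Cdkn1a* without DMSO replicate 1. Of 14 tested genes of cholesterol synthesis edgeR called none, with 4 at an unadjusted p below 0.05, DESeq2 called none and the limma test called 3.

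Among 16 tested S phase genes *Tyms* was lower (-0.89 ± 0.18), a share near the 7.56% of all genes. Among 16 genes of G2 and mitosis *Mki67* (160.0 to 268 CPM in 5C against 59.8 and 55.1 CPM, 1.84 ± 0.24) and *Top2a* (0.84 ± 0.17) were higher and *Aurka* (-0.84 ± 0.21) was lower. The shares of all genes were 6.38% higher and 7.56% lower. *Tyms* and *Aurka* lost their calls without either DMSO sample and *Top2a* without DMSO replicate 1. With the length offset *Top2a* (0.48, adjusted p = 0.0831) and *Aurka* (-0.46, adjusted p = 0.194) were not called.

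Mesendoderm and endoderm genes were mostly near 0. Of 10 listed, 3 passed the filter on low counts and 1 was called, *Foxa2*, which was higher, beside 6.38% of all genes. It passed the filter through the 5C samples alone, so this count is not independent of the filter. *Foxa2*, an endoderm factor, held 65 UMIs in 5C and 0 in DMSO and was at least 14.2-fold higher, with a floor of 3 counts over the group. It lost its call without either DMSO sample. *Eomes*, a factor of mesendoderm, was at 0 in 5 of the 6 5C samples and at 2.63 CPM in replicate 5, below the 7.53 and 9.901 CPM of DMSO, a difference of -3.71 ± 1.26 that did not pass the test (adjusted p = 0.0561). *Lhx1* was above both DMSO samples in each 5C sample and did not pass either (3.66 ± 1.30, adjusted p = 0.0671). The endoderm factors *Gata6*, *Gata4* and *Sox17* did not pass the filter and stood at 294, 103 and 45.8 CPM in 5C replicate 3, the sum of 6 cells, and at no more than 2.37 CPM in any other sample. Their part in the values of that sample was not tested.

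The genes with the largest differences among those called were named by rule. On the higher side, *Ptgs1*, which encodes cyclooxygenase 1, and *Xkr6* held no UMI in DMSO and passed the filter on low counts through 5C alone. *Ptgs1* was at least 49.5-fold higher in 5C and *Xkr6* at least 36.8-fold, and both lost their calls without either DMSO sample. *Ccnd2*, cyclin D2, ran from 42.1 to 70.6 CPM in 5C and stood at 2.74 and 1.29 CPM in DMSO (4.69 ± 0.49, adjusted p = 2.83e-05). *Gm364* (5.02), *Nlrp4c* (4.85) and the germ cell gene *Asz1* (4.51) were higher too. *Rnaset2b*, which has a near-identical copy, and the Y-linked *Usp9y* held 1 UMI each in DMSO, with ratios of 98.97 (95% counting interval 17.5 to 3932) and 113 (20.02 to 4480.4). Of the 195 *Usp9y* UMIs in 5C 115 came from replicate 1, and without it the ratio was 59.9. On the lower side, beside *Fgf5* and *Ndufa4l2*, stood the neuronal kinesin *Kif1a* (-5.17), *Lypd2* (-4.96), *Crybb3* (82.9 times lower, 22.3 to 695) and *Zmynd15* (66.2 times lower, 22.1 to 326). The histone genes *Hist1h2bn* (-5.58), *Hist1h4f* (-5.55), *Hist1h4j* (-5.09) and *Hist1h2ad* (82.1 times lower, 22.1 to 687) were lower as well, and near-identical copies make their counts uncertain. Calls were lost without DMSO replicate 1 for *Kif1a*, *Crybb3*, *Hist1h4j* and *Hist1h2ad*, without DMSO replicate 2 for *Nlrp4c*, *Asz1*, *Rnaset2b*, *Lypd2* and *Zmynd15*, and without either for *Usp9y* and *Hist1h4f*. *Hist1h2bn* and *Lypd2* were not called by DESeq2. *Ccnd2* and *Gm364* kept their calls in every setting.

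Within the 5C arm, the differences were set against DMSO with the samples of day 12 alone and with those of days 14 and 16 alone. They were -2.76 and -3.22 for *Mt1*, -2.67 and -2.58 for *Slc2a1*, -1.77 and -1.99 for *Ldha* and -2.98 and -2.79 for *Otx2*. They were 2.21 and 1.86 for *Klf4*, 2.93 and 2.76 for *Peg3* and 3.46 and 2.79 for *Piwil2*. Each of these genes was called in both, against DMSO samples of a later day in either case.

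Whether a difference was particular to pluripotent-like cells was tested as the interaction of class and treatment against *Dazl*-high cells, 523 in 8 5C samples and 195 in 5 DMSO samples. In DMSO the classes hardly shared samples: 177 of the 195 *Dazl*-high cells came from replicates 3, 4 and 5, which held no pluripotent-like cell, and 91 of them were of day 24. Class, sample and day are thus mixed within DMSO. The comparison was therefore also made, as an alternative chosen after seeing the data, in the 8 samples that held both classes, with the sample as a block, where the 2 DMSO samples held 7 and 11 *Dazl*-high cells. The term was called higher for 3.93% of the genes and lower for 3.82% (7.76% in all). In the samples with both classes 258 genes had a term called higher and 300 lower, against 571 and 555 over all samples, and 383 of the 1105 genes called over all samples and tested there were called in the same direction. A limma-voom fit over all samples with the sample as a random effect called 708 higher and 1009 lower. The difference in *Dazl*-high cells was -0.71 for *Mt1* (term -2.32, adjusted p = 9.51e-06) and -0.76 for *Mt2* (term -2.10, adjusted p = 4.61e-04). It was -0.40 for *Tpi1* (term -2.16, adjusted p = 5.83e-04) and -0.03 for *Klf4* (term 2.04, adjusted p = 0.00137). In the samples with both classes the terms were -1.98 for *Mt1*, -1.99 for *Mt2*, -1.57 for *Tpi1* and 2.36 for *Klf4* (adjusted p = 1.43e-05, 0.000222, 0.00136 and 0.00324). These 4 genes were called in each of the 3 fits.

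The calls of *Slc2a1*, *Sox2* and *Spry4* depended on the fit. The term of *Slc2a1* was not called over all samples (-1.84 in *Dazl*-high cells, term -0.75, adjusted p = 0.174) or with the random effect (adjusted p = 0.0535), and was called in the samples with both classes (-1.27, adjusted p = 0.0177). That of *Sox2* was not called over all samples (1.94 in *Dazl*-high cells, adjusted p = 0.419), was called with the random effect (-1.66, adjusted p = 0.0346) and was 0.028 in the samples with both classes (adjusted p = 0.997). For *Spry4* it was -3.78 over all samples (adjusted p = 5.72e-04), -4.58 with the random effect (adjusted p = 1.10e-04) and -1.59 in the samples with both classes, where it was not called (adjusted p = 0.247). A difference between the classes was not shown in any of the 3 fits for *Peg3* (adjusted p = 0.0729, 0.0932 and 0.234) or *Spry2* (adjusted p = 0.906, 0.766 and 0.724, over all samples, with the random effect and in the samples with both classes).

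Levels in cultures of the original condition, with neither 5C nor DMSO, were set beside these values as a description. They were measured by modified STRT-seq, where 330 of 4339 cells met the same rule and 10 of 46 libraries held at least 5 of them: 3 of days 12 and 14, 2 of day 18 and 5 of days 20 and 23. The protocols differ, so no test was made, and the libraries up to day 18 and those after it belong to different batches. On the unscaled CPM scale, *Slc2a1* ran from 152 to 258 CPM on days 12 and 14 and from 436 to 641 CPM on later days, beside 91.4 to 122 CPM in 5C, below all 10 libraries, and 468 and 485 CPM in DMSO. *Otx2* ran from 0 to 45.2 CPM early and from 134 to 315 CPM late (2.34 to 75.00 CPM in 5C, 209 and 255 CPM in DMSO). *Klf4* ran from 110.3 to 189 CPM early and from 31.4 to 51.6 CPM late (124 to 251 CPM in 5C, 43.8 and 32.1 CPM in DMSO). In these 3 genes both DMSO samples, of day 20, lay within the late range. *Ldha* ran from 510.4 to 755 CPM early and from 1059 to 1244 CPM late, so that DMSO (1899 and 1770.0 CPM) lay above all 10 libraries. *Nanos3* ran from 153 to 218 CPM early and from 1.44 to 26.7 CPM late. It stood at 18.1 to 114 CPM in 5C and at 0.89 and 0.529 CPM in DMSO, below all 10 libraries. *Ndufa4l2* ran from 0.392 to 7.17 CPM early and from 35.96 to 174.9 CPM late. It stood at 0 to 1.57 CPM in 5C and at 24.9 and 24.5 CPM in DMSO.

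*Mt1* ran from 222 to 273 CPM on days 12 and 14 and from 286 to 769.6 CPM later, 2 ranges that did not overlap and differed in the direction of 5C and DMSO, and the DMSO samples, at 2662 and 2308 CPM, lay above all 10 libraries. *Peg3* ran from 55.6 to 204 CPM early and from 122 to 235 CPM late, with both DMSO samples (26.2 and 38.4 CPM) below all 10 libraries and 4 of the 6 5C samples above them. *Sox2* ran from 191 to 425 CPM over all days, below each 5C sample (523 to 704 CPM). *Spry2* ran from 32.2 to 94.6 CPM over all days, above both DMSO samples (9.08 and 6.88 CPM), as did *Stat3* at 76.2 to 133 CPM (29.9 and 38.1 CPM in DMSO). *Ptgs1* ran from 10.5 to 59.7 CPM early and from 0 to 6.01 CPM late. It stood at 1.96 to 36.6 CPM in 5C and at 0 in DMSO. *Sp5* ran from 1.37 to 9.56 CPM early and from 3.64 to 17.4 CPM late, ranges that overlapped. It stood at 14.6 to 44.3 CPM in 5C and at 0 and 0.176 CPM in DMSO.

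**Figure D5:**
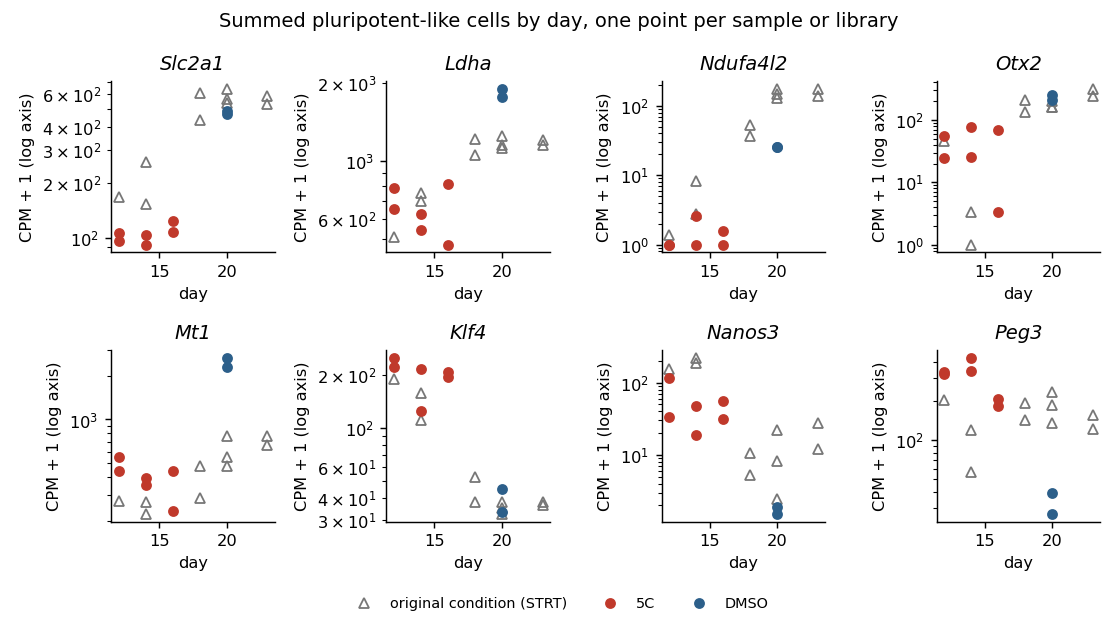
Unscaled CPM plus 1 (y axis, log scale) of 8 genes in summed pluripotent-like cells against the day of collection (x axis), with one point per sample or library of 5C, DMSO and the original condition (STRT-seq). For Slc2a1, Ldha, Ndufa4l2, Otx2, Mt1, Klf4 and Nanos3 the early and late libraries of the original condition lie apart in the direction that separates 5C from DMSO. The 2 DMSO points lie above all 10 libraries for Mt1 and Ldha and below all 10 for Peg3 and Nanos3.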

How the data were processed

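Per the labels, the RNA arm of scTrio-seq2 was applied to polyA RNA of single cells, 8 5C and 5 DMSO samples. The authors removed template-switch and polyA sequence from the reads, aligned them to mm10 (STAR 2.7.2b per their processing notes), assigned them to genes (featureCounts 2.0.0), counted unique molecules with UMI-tools and deposited raw UMI counts for each cell. Their filters kept cells with at least 2000 genes and at most 5% mitochondrial UMIs. The strand setting of the counting is not given in the sources used here.

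Counts were summed over the pluripotent-like cells of each sample with at least 5 of them, so samples with more or deeper cells are more precise. The 6 5C and 2 DMSO sums were compared with edgeR 4.0.16 in R 4.3.3 (TMM, filterByExpr, quasi-likelihood test, all samples sharing one estimate of the spread). The class by treatment term came from the same kind of fit on pluripotent-like and *Dazl*-high sums, with the sample as a random effect in a limma-voom alternative, and, in an alternative added after seeing the data, on the samples that held both classes with the sample as a block. limma 3.58.1 and DESeq2 1.42.0 served as alternatives. *Dazl* and *L1td1* were not tested. Samples share the barcodes of wells by design (84 of 92 wells held pluripotent-like cells of 2 or more samples), no cell was identical to another, and replicates differed by more than sampling noise. Doublets were not called, since single cells were picked by hand. 8 cells of day 0 were not used.

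The rule for the cells and the gene lists were chosen with earlier results of these data known. Genes were named by rule: the 10 largest called differences in each direction with a mean of at least 10 CPM in the higher arm and no overlap, up to 5 members of each list in each direction, genes of interest to the study, and the markers of the class. *Eno1*, *Hk1*, *Hk2*, *Gpi1*, *Gclc*, *Gclm*, *Hmox1*, *Id4*, *Myc*, *Dusp6*, *Etv5*, *Socs3*, *Prmt3*, *Lhx1*, *Gata6*, *Gata4* and *Sox17* were added as list members after their values were seen. Transcript lengths and promoters came from the annotation of build GRCm38. On simulated counts for this comparison (11020 genes), the test called 17% of changes of 1 and 63.6% of changes of 2 on the log2 scale, and 3 of 10832 unchanged genes. The simulated counts held no trend with transcript length and no difference in TMM scaling between the arms. The data held both, so these rates cannot be carried over to them.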

Additional observations from a re-analysis of the deposited data

Results flagged for a closer look

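In 13 of 111 groups of samples tested, 1 of the 6 5C samples stood far from the other 5. Chance flags about 1 in 20 groups, a share that cannot be set beside these 13, since 9 of them were genes below 1 CPM in the other 5C samples, where 1 value above 0 stands apart by construction. *Nanos3* stood at 108 CPM in 5C replicate 7, and the other 5C samples ran from 17.3 to 50.3 CPM. *Slc23a2* stood at 49.6 CPM in 5C replicate 7, and the other 5C samples ran from 25.1 to 30.5 CPM. *Fgf15* stood at 16.5 CPM in 5C replicate 5, and the other 5C samples ran from 0 to 2.54 CPM. *Tet1* stood at 454 CPM in 5C replicate 3, and the other 5C samples ran from 292 to 343 CPM. The remaining values were those of genes at or near 0 in the other 5C samples: in replicate 1 0.564 CPM for *Hist1h2ad* and 0.564 CPM for *Zmynd15*, in replicate 5 1.31 CPM for *Fgf5*, 1.502 CPM for *Ndufa4l2*, 1.69 CPM for *Hist1h2bn*, 3.003 CPM for *Lypd2* and 2.63 CPM for *Eomes*, in replicate 7 1.25 CPM for *Hist1h4f* and 1.57 CPM for *Hist1h4j*.

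For 44 of 107 named genes the log2 difference between 5C and DMSO was not the same in pluripotent-like and *Dazl*-high cells, by the interaction term of edgeR's quasi-likelihood test at an adjusted p below 0.05 and the limit of size, beside 7.76% of all genes. Most of the 107 were named for their differences in pluripotent-like cells, which enter the term, so the shares are not comparable. The term was fitted with most *Dazl*-high cells of DMSO taken from samples with no pluripotent-like cell. In the 8 samples that held both classes 23 of the 44 were called in the same direction, and *Rnaset2b*, *Nanog* and *Dppa3* had terms of the other sign (-2.13, 0.27 and -0.054; adjusted p = 0.876, 0.878 and 0.976). Terms above 0 were 7.80 for *Xkr6*, 6.49 for *Usp9y*, 6.25 for *Nanos3*, 6.17 for *Rnaset2b*, 6.10 for *Foxa2*, 5.01 for *Sp5*, 4.91 for *Asz1* and 4.796 for *Sohlh1*. Others above 0 were 4.68 for *Nlrp4c*, 4.42 for *Gm364*, 3.58 for *Axin2*, 3.57 for *Piwil2*, 3.24 for *Zbtb16*, 3.12 for *Tex101*, 2.52 for *Ccnd2* and 2.50 for *Dppa3*. Also above 0 were 2.31 for *Ddx4*, 2.23 for *Slc30a1*, 2.04 for *Klf4*, 2.03 for *Pim1*, 1.83 for *Slc23a2*, 1.76 for *Dmrt1*, 1.46 for *Il6st* and 1.35 for *Pdia4*. The rest above 0 were 1.31 for *Sohlh2*, 1.21 for *Stat3* and 0.91 for *Sall4*. Terms below 0 were -9.64 for *Hist1h4j*, -7.71 for *Hist1h4f*, -5.94 for *Ndufa4l2*, -3.78 for *Spry4*, -3.09 for *Nanog*, -2.32 for *Mt1* and -2.16 for *Tpi1*. Others below 0 were -2.10 for *Mt2*, -1.55 for *Tcl1*, -1.53 for *Cdkn1a*, -1.51 for *Tyms*, -1.44 for *Txn1*, -1.37 for *Psat1* and -1.11 for *Pkm*. The rest below 0 were -1.04 for *Ldha*, -0.94 for *Gapdh* and -0.77 for *Ftl1*. A term above 0 says that the difference was more positive in pluripotent-like cells. For *Nanog* the difference was -0.56 in pluripotent-like and 2.54 in *Dazl*-high cells, over all samples, and for *Spry4* 1.30 and 5.08.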

How the results depend on the processing

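No paired analysis was possible because, for 5C against DMSO, the replicate numbers that the arms share among samples with pluripotent-like cells are fewer than 2; the class by treatment comparison, whose classes share samples, was also fitted with the sample as a random effect. Of 87 named genes called, 24 kept their call in all 23 settings and *Fgf5* in the 22 in which it was tested. Among the 24 were *Mt1*, *Mt2*, *Slc2a1*, *Ldha*, *Tpi1*, *Otx2*, *Tdgf1*, *Sox2*, *Klf4*, *Nr5a2*, *Peg3*, *Phlda2*, *Piwil2* and *Nanos3*. The setting with at least 50 CPM of *Otx2* chose cells by that gene, so it is no test of *Otx2* itself. *Dnmt3l*, *Fbxo15*, *Id4*, *Il6st*, *Kcnq1ot1*, *Pdia4*, *Phlda3*, *Pim3*, *Slc23a2*, *Sohlh1* and *Tcf15* lost their call without 1 or more single 5C samples. The number called higher and lower (729 and 864) was 150 and 138 at an adjusted p below 0.01 and a natural-log fold change of at least 1, and 396 and 362 with the length offset. It was 1454 and 224 in the limma test on mean CPM, whose median over all genes was 0.34. The number higher was 425 with 5C of days 14 and 16, 1190 with 5C of day 12, and 1206 with DESeq2, and the number lower was 473 with the offset for GC content. With 1 sample left out, the counts ran from 108 to 936 higher and from 362 to 972 lower, and both low ends came from leaving out a DMSO sample. The class by treatment term (571 higher, 555 lower) gave 184 and 116 at the stricter limits, 1009 lower with limma-voom, 258 and 300 in the samples that held both classes, and 210 to 556 and 300 to 593 with 1 sample left out.

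List medians moved in the limma test to 0.92 for naive pluripotency, -0.87 for glycolysis, -0.20 for the hypoxia response, 0.83 for DNA methylation, 1.76 for ERK feedback, 1.36 for LIF and STAT3, 0.41 for arginine methyltransferases, 1.06 for histone demethylases, 0.43 for S phase, 0.57 for G2 and mitosis, 0.83 for neural and 2.415 for mesendoderm genes. In cells with *Otx2* of at least 50 CPM (2 samples in each arm) they moved to 0.38 for naive pluripotency, 1.17 for imprinted genes, 0.28 for the stress responses, 0.12 for cholesterol synthesis, 0.91 for ERK feedback, 0.46 for LIF and STAT3, 1.71 for Wnt targets, 0.58 for ascorbate transport and prolyl hydroxylases, 0.98 for histone demethylases and -1.34 for mesendoderm. With the length offset they moved to 0.42 for naive pluripotency, -0.14 for metallothionein and redox, 0.041 for DNA methylation, 0.35 for imprinted genes, 0.26 for the stress responses, 0.63 for LIF and STAT3, 0.30 for histone demethylases and 0.0499 for fibroblast and feeder genes. With 5C of days 14 and 16 the median for ascorbate transport and prolyl hydroxylases was -0.27. The cause of these moves was not tested.

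The genes that changed sign were not called in the main test. *Zscan10* was 0.11 with 5C of days 14 and 16, 0.10 and 0.20 with the length and GC offsets, 0.38 in the limma test and -0.21 to 0.013 with 1 sample left out. *Rhox5* was 0.10 with *Dazl* below 200 CPM, 0.43 with days 14 and 16, 0.21 in *Otx2* cells, 0.72 and 0.15 with the length and GC offsets and -0.49 to 0.18 with 1 sample left out. *Gdf3* was -0.0056 and *Dppa2* -0.029 with at least 10 cells per sample. With 5C of day 12, *Nr0b1* was -0.25, *Dppa2* -0.16 and *Epas1* -0.016. In *Otx2* cells *Dppa3* was -0.24 and *Tfap2c* -0.21. *Bmp4* was 0.15 with days 14 and 16 and 0.065 with the length offset, under which *Hif1a* was -0.0042, *Dnmt3b* -0.16 and *Tet1* -0.19. With 1 sample left out, *Dppa2* ran from -0.012 to 0.17 and *Dnmt3b* from -0.026 to 0.17.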
